A study of Mus musculus with 69 samples.

Results

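Egr1, Nr4a1 and Nr4a2, 3 transcription factor genes linked to the quiescence of blood stem cells, were examined in the histone mark profiles of mice with a conditional Kmt2c allele. All peaks within 50 kb of the bodies of these genes on mm10 (GRCm38) were taken from each of 18 peak lists, so the members are 3 of the 21883 protein-coding genes of the gene table. Around them lay 105 elements, an element being the union of touching peaks of 1 mark over all its lists. Of these, 31 were H3K27ac elements, of 89333 in the series, and 74 were H3K4me1 elements, of 165740. H3K27ac marks active promoters and enhancers. H3K4me1 marks enhancers, and KMT2C (MLL3) is one of the enzymes that place it.

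The marks were profiled by ChIPmentation in haematopoietic stem cells (HSC) and in the more committed haematopoietic progenitor cells (HPC) of wild-type mice, of Kmt2c f/+; Vav-Cre mice (heterozygous) and of Kmt2c f/f; Vav-Cre mice (knockout). Vav-Cre is active in blood-forming cells, so other tissues of these mice keep the allele. At 8 weeks, untreated mice of the 3 genotypes gave 6 H3K4me1 lists from 3 libraries each. At 16 weeks, HSC of wild-type and knockout mice were taken after PBS or 5-fluorouracil (5FU), which is toxic to cells that divide, at 150 mg/kg, in 3 injections spaced by 3 weeks. These gave 4 H3K27ac lists of 3 libraries each and 4 H3K4me1 lists of 3 to 6 libraries. HPC of wild-type and knockout mice aged 8 to 10 weeks gave 4 H3K27ac lists of 4 libraries each after daily PBS, or the inflammatory cytokine interleukin-1 (IL-1) at 0.5 µg each day, for 3 days. In all, 63 of 69 samples stand behind the 18 lists, and 6 input samples were not analysed here. The labels do not say whether the libraries of a group came from separate animals. Each group had 1 list for all its libraries, so no value below has a replicate error, no test was possible, and every difference is a difference between 2 lists.

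EGR1 is a zinc-finger transcription factor of the immediate early class: growth and stress signals switch its gene on within minutes through serum response factor and its ETS partners. In the marrow it is known as a factor that holds HSC in their niche and out of the cell cycle. NR4A1 (Nur77) and NR4A2 (Nurr1) are orphan nuclear receptors, also encoded by immediate early genes, that act without a classical ligand and bind the NBRE motif. The NR4A genes respond to cyclic AMP through CREB, restrain the proliferation of HSC and act as tumour suppressors in myeloid leukaemia.

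The start regions of Nr4a1 and Nr4a2 are shown because H3K27ac covered them in every list and because both hold several copies of TGACG, the short form of the cyclic AMP response element through which CREB acts. The 250 bases before each start follow, 5′ to 3′ on the strand of the gene, from RefSeq on GRCm38.p6, with TGACG on either strand in capitals. Nr4a1 is read from chr15:101266596-101266845 on the plus strand and Nr4a2 from chr2:57124004-57124253 on the minus strand.
Nr4a1: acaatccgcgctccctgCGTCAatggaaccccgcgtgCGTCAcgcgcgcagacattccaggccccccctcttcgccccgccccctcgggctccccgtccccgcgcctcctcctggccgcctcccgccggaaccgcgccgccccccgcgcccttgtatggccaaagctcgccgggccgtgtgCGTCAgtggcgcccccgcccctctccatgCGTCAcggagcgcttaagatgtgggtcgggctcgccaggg
Nr4a2: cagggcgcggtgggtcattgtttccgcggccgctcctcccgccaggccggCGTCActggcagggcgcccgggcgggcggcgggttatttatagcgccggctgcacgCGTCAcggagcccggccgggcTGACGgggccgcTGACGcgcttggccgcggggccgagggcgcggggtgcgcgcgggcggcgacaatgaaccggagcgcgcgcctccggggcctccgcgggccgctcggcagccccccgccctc
Each stretch held 4 matches, and a table of 21262 promoter windows of 300 bases, from 250 before to 50 after a start, had as many in 0.325% of windows and at least 1 in 23.6%. Nr4a3, the remaining gene of the family, also had 4. No Nr4a1 or Nr4a2 window held the full element TGACGTCA (2.23% of windows), the NBRE AAAGGTCA (1.3%), an AP-1 site TGANTCA (6.99%), an ETS site CCGGAAG (11.6%), CCAAT (38.2%) or a CArG box (1.52%). Each held 1 EGR site GCGNGGGCG (7.52% of windows), which overlapped a match to the SP site GGGCGG (46.2%). All motifs were sought on both strands, and a match is a description of letters only. The G and C content of the printed bases was 74.4% for Nr4a1 and 80.0% for Nr4a2. No promoter sequence is printed for Egr1.

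In the 300 bases around the start of Egr1, Nr4a1 and Nr4a2, H3K27ac peaks covered all 300 bases in all 8 H3K27ac lists. H3K4me1 covered none of these bases in any of its 10 lists. Of all promoter windows in the table, 34.4% had H3K27ac in every list, and 75.9% of those had H3K4me1 in none, so the pattern at the members' starts is the common pattern of active starts.

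The lists differed in size. H3K4me1 lists covered 86.1 to 113.0 Mb at 8 weeks and 44.2 to 54.0 Mb at 16 weeks, except the wild-type 5FU list with 116.0 Mb, which joined 3 libraries from each of 2 library series named in the labels. H3K27ac lists covered 33.4 to 45.9 Mb. A difference between lists is therefore given as a relative log2 ratio: log2 of the ratio of covered bases in the gene's window, after adding 1000 bases to both, minus the same value of the median gene. A value is called when it lies at least 1.5-fold from the median gene, which is a rule of size and not a test. The labelled cell types were checked on marker genes. All 8 HSC markers, among them Mecom, Hlf and Procr, had less H3K4me1 in wild-type HPC than in HSC relative to the median gene (336227 bases summed in HSC, 197634 in HPC), and 5 of 6 myeloid progenitor markers, among them Mpo and Cebpa, had more (105383 and 171421 bases). The 3 T cell markers summed to 21266 bases in wild-type HSC and 31664 in wild-type HPC, and the 3 B cell markers to 20504 and 34732. All 3 T cell and all 3 B cell markers had more in HPC relative to the median gene. So did 2 of 3 erythroid, 2 of 3 megakaryocyte and 1 of 4 stroma and endothelium markers. No marker of any of these lists was uncovered in every list of a cell type, and the part of other cells in the values below was not tested.

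Egr1 lies at chr18:34861207-34864956 on the plus strand and had few H3K27ac elements, most of them present in every list. Only 4 H3K27ac elements lay in its window, and 3 of them were present in all 8 lists. One of them, chr18:34858719-34862122, covered the start. Another, chr18:34853204-34858608, lay 2.6 to 8.0 kb upstream of the start in sequence with no annotated gene. The last of them, chr18:34886924-34889067, lay 25.7 to 27.9 kb downstream, also between genes. The fourth element was a single peak of 117 bases in the knockout 5FU HSC list.

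The upstream element carried the strongest H3K27ac peak of the window in every list. Its fold enrichment, the authors' value for the peak, was 13.5 in wild-type PBS HSC, 15.4 in wild-type 5FU HSC, 10.8 in knockout PBS HSC and 12.8 in knockout 5FU HSC. In HPC it was 26.8 in wild-type PBS, 30.0 in wild-type IL-1, 29.5 in knockout PBS and 22.0 in knockout IL-1. Within each list this was 113.0% to 151.0% of the fold enrichment at the Egr1 start, so the region upstream outranked the promoter itself in 8 of 8 lists. H3K4me1 marked the same upstream region: the element chr18:34854244-34859686 was present in all 10 H3K4me1 lists with 3150 to 4990 covered bases.

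**Figure D1:**
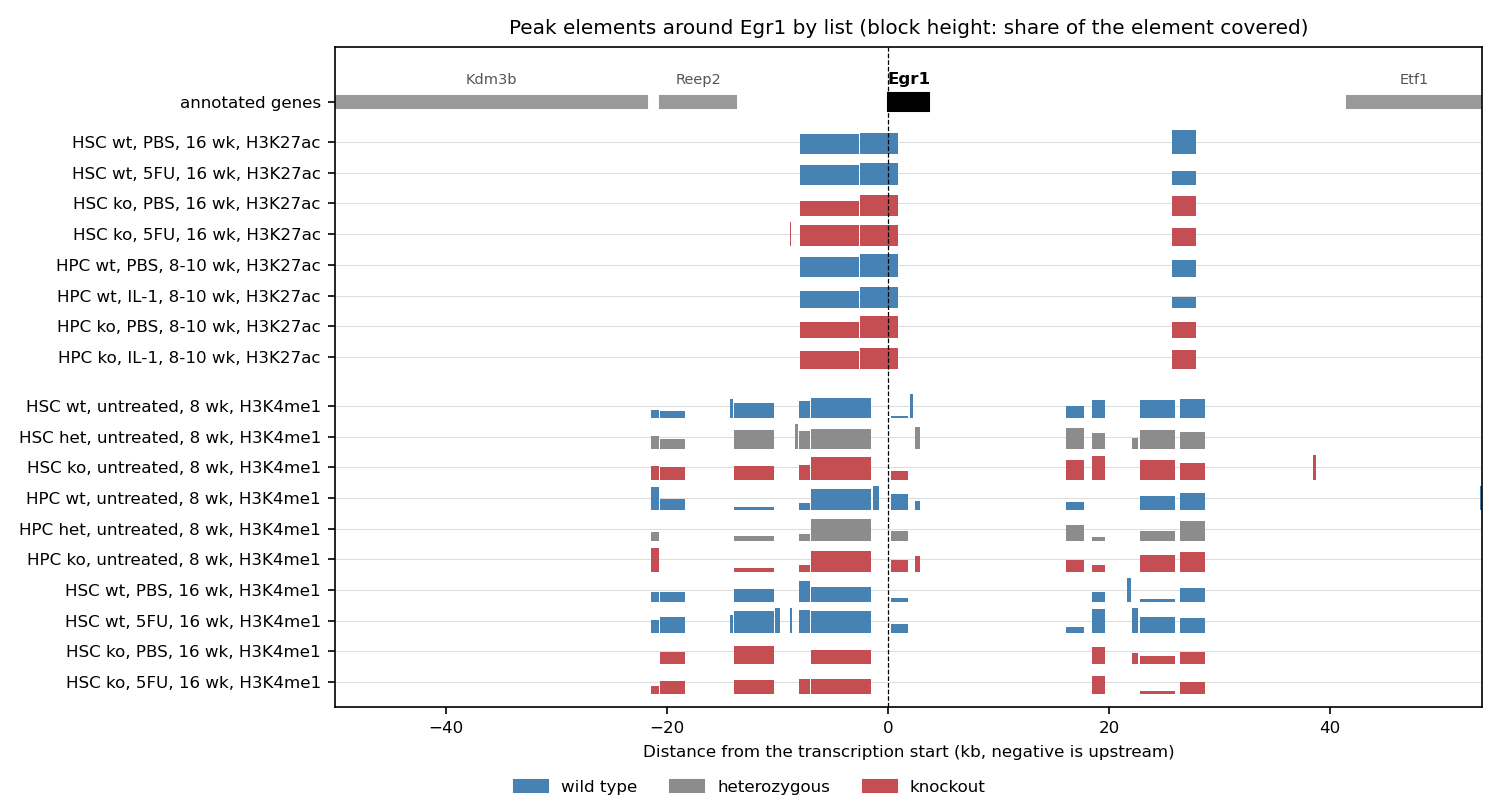
Peak elements in the Egr1 window by list, with distance from the Egr1 start in kb on the horizontal axis and 1 line for each of the 18 lists, where a block's height is the share of the element covered in that list and colour is the genotype; grey bars are other protein-coding genes. The 3 H3K27ac elements stand in all 8 lists, and the H3K4me1 element between 10.3 and 13.9 kb upstream is low in the 3 HPC lists.

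Egr1 carried less H3K4me1 in HPC than in HSC at 8 weeks. The window held 14684, 16283 and 16257 covered bases in wild-type, heterozygous and knockout HSC, against 13045, 11084 and 12005 in HPC of the same genotypes. Every HPC list thus lay below every HSC list, as for 15.4% of all genes, and the relative log2 ratio was -0.41 for wild-type, -0.48 for heterozygous and -0.27 for knockout cells. None of these reached 1.5-fold, which 19.0%, 20.0% and 21.5% of genes did. In sorted bulk populations, fewer cells with the mark and less of the mark per cell cannot be told apart.

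The difference lay in distal elements. The element chr18:34847289-34850905, which is 10.3 to 13.9 kb upstream and overlaps the long noncoding RNA gene Gm41689 and one end of Reep2, held 2181, 2721 and 1938 bases in wild-type, heterozygous and knockout HSC. In HPC it held 510, 687 and 482 bases. All 7 HSC lists, with 1909 to 3271 bases, were above all 3 HPC lists. A smaller element, chr18:34879747-34880854, 18.5 to 19.6 kb downstream of the start, held 466 to 1075 bases in the 7 HSC lists and 0 to 282 in HPC. Near the gene the order was the other way at an element chosen after its values were seen. This element, chr18:34861470-34863042 inside Egr1, held 669 to 1071 bases in HPC and 0 to 585 in HSC. With a window of 10 kb on both sides of the gene in place of 50 kb, the wild-type ratio was 0.03, the heterozygous ratio -0.0093 and the knockout ratio 0.08. H3K27ac over the whole window overlapped between the cell types, with 7889 to 9594 bases in HSC and 7603 to 9063 in HPC.

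Nr4a1 lies at chr15:101253902-101274795, with the RefSeq start used here at position 101266846, inside the annotated gene, which begins farther upstream. It had the densest marks of the 3 genes. Its window was covered over 14.2% to 29.9% of its length, depending on the list and mark, against 7.33% to 17.3% for Egr1 and 0.383% to 8.29% for Nr4a2. By covered bases Nr4a1 stood at percentile 98.2 to 99.5 of genes for H3K27ac and 93.1 to 96.3 for H3K4me1. Egr1 stood at percentile 64.5 to 88.3 over both marks, and Nr4a2 at 29.5 to 72.0. The window of Nr4a1 also holds Grasp, Atg101, Smim41 and one end of Acvr1b, and between 16.6% and 27.8% of its covered bases lay inside other annotated genes.

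Of 23 H3K27ac elements around Nr4a1, 7 were present in all 8 lists, and 22 shared bases with an H3K4me1 element. The start element, chr15:101265427-101268083, held 1993 to 2645 bases in the 8 lists. A cluster of 3 constant elements ran over the annotated upstream part of the gene: chr15:101252200-101255386, which overlaps the annotated upstream end, chr15:101255483-101258591 and chr15:101260936-101264395. A further constant element, chr15:101243187-101248643, lay 18.2 to 23.7 kb upstream of the start between Grasp and Nr4a1. The remaining constant ones were an element over one end of Atg101 (chr15:101283235-101285728) and a stretch of 7541 bases at chr15:101315966-101323506 that overlaps the noncoding gene Gm52200.

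H3K27ac peaks around Nr4a1 covered more bases in the HPC lists than in the HSC lists, an order that many genes shared. HSC lists held 21442 bases in wild-type PBS, 24243 in wild-type 5FU, 17160 in knockout PBS and 18675 in knockout 5FU. HPC lists held 26941 in wild-type PBS, 31905 in wild-type IL-1, 25142 in knockout PBS and 28757 in knockout IL-1. All 4 HPC lists lay above all 4 HSC lists, as for 33.5% of genes. By H3K27ac bases Nr4a1 stood at percentile 98.2 to 98.6 of genes in HSC and 98.3 to 99.5 in HPC, so its rank among genes was similar. The HSC and HPC lists for H3K27ac also differ in age, treatment schedule and experiment, so cell type cannot be told apart from these.

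The upstream element between Grasp and Nr4a1 was among those that followed this order. It held 3999, 4331, 3768 and 3875 bases in wild-type PBS, wild-type 5FU, knockout PBS and knockout 5FU HSC, against 5425, 5415, 4957 and 5248 in wild-type PBS, wild-type IL-1, knockout PBS and knockout IL-1 HPC. Its peak had 169.0% to 296.0% of the fold enrichment of the start element within the HPC lists and 83.2% to 173.0% within the HSC lists. It was the strongest H3K27ac peak of the window only in wild-type 5FU HSC (fold enrichment 13.3) and wild-type IL-1 HPC (26.9). In the other lists the strongest peak lay in the element over one end of Atg101, with 14.5 in wild-type PBS HSC and 22.5 in wild-type PBS HPC. Beside the upstream element, the small element chr15:101240959-101241611 was present in all 4 HPC lists with 268 to 527 bases and in no HSC list. It was the only 1 of the 31 members' H3K27ac elements of that kind, which made up 1.71% of all H3K27ac elements. No member's H3K27ac element was in all HSC and no HPC list (3.55% of all). For H3K4me1, a larger element over part of the upstream element, chr15:101240731-101246456, had ranges that overlapped. It held 4573 to 5146 bases in the 3 HPC lists and 1789 to 4600 in the 7 HSC lists. The same order as for H3K27ac stood at the edge of this region. There, chr15:101246564-101249303 held 2195 to 2615 bases in the 3 HPC lists and 232 to 1820 in the 7 HSC lists. Over the whole Nr4a1 window, however, H3K4me1 at 8 weeks was 27601, 28159 and 35810 bases in wild-type, heterozygous and knockout HSC and 35704, 34903 and 36094 in HPC, so the ranges overlapped. The relative log2 ratios of HPC against HSC were 0.11, 0.33 and 0.15, and no member had all 8-week HPC lists above all HSC lists, as 22.9% of genes did.

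**Figure D2:**
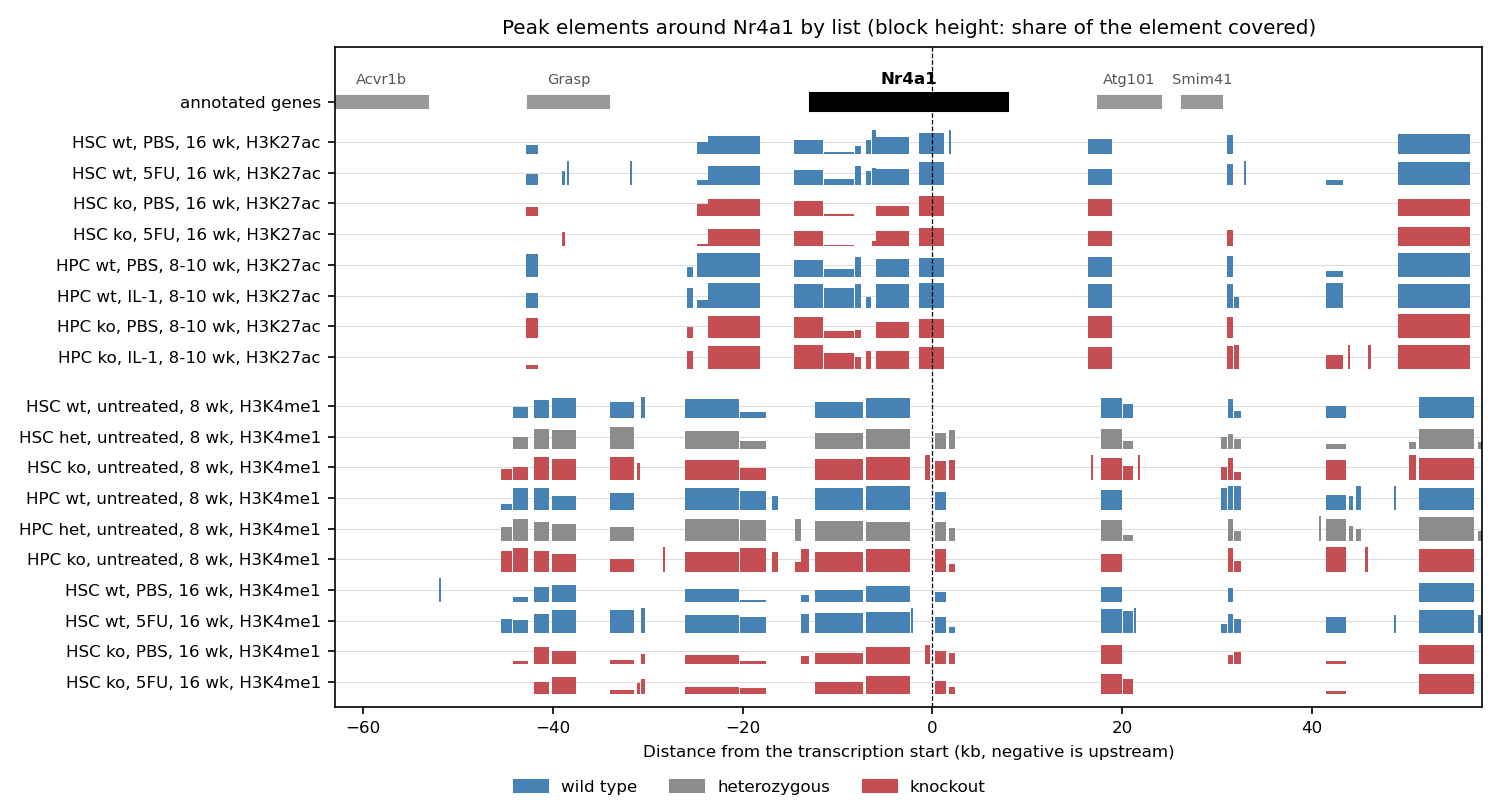
Peak elements in the Nr4a1 window by list, with distance from the RefSeq start in kb on the horizontal axis and 1 line for each of the 18 lists, where a block's height is the share of the element covered in that list and colour is the genotype; grey bars are other protein-coding genes. The small H3K27ac element 25.2 to 25.9 kb upstream stands only in the 4 HPC lists, and the element 8.26 to 11.4 kb upstream is taller in the IL-1 than in the PBS lists.

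IL-1 went with broader H3K27ac around Nr4a1 in HPC of both genotypes. The window held 26941 bases after PBS and 31905 after IL-1 in wild type, and 25142 and 28757 in knockout. The relative log2 ratio was 0.25 in wild type, at percentile 90.9 of genes, and 0.36 in knockout, at percentile 96.0. Neither reached 1.5-fold, which 3.26% of genes did in wild type and 3.15% in knockout. Both ratios stayed above 0 under all 8 alternative settings, from 0.10 to 0.35 in wild type and from 0.19 to 0.37 in knockout.

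The added bases lay mostly inside the annotated gene, upstream of the RefSeq start: the gene body held 7617 H3K27ac bases after PBS and 10862 after IL-1 in wild type, and 7038 and 9124 in knockout. The element chr15:101255483-101258591 held 1069 bases after PBS and 2569 after IL-1 in wild type, and 995 and 2003 in knockout. Both IL-1 lists were above both PBS lists there. Elements chr15:101259833-101260367 and chr15:101298661-101299121 were present in both IL-1 lists and in no PBS list of HPC. These were 2 of the 31 members' elements (6.45%), against 1.26% of all H3K27ac elements. The first of them was also in both wild-type HSC lists, with 318 bases after PBS and 307 after 5FU, and in no knockout HSC list. The second, 31.8 to 32.3 kb downstream of the start, was in no HSC list. Another site was chosen after its values were seen: chr15:101308384-101310143, 41.5 to 43.3 kb downstream, held 418 bases after PBS and 1760 after IL-1 in wild type, and 0 and 1001 in knockout. Other elements held less after IL-1. One of them, also chosen after its values were seen, was chr15:101223979-101225227, which overlaps Grasp. It had 1200 bases after PBS and 761 after IL-1 in wild-type HPC and 1053 and 189 in knockout HPC. The element chr15:101242026-101243134 had 1109 and 335 bases in wild-type HPC and was in neither knockout HPC list. The start element held 2120 and 2645 bases in wild type and 2127 and 2390 in knockout.

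Egr1 and Nr4a2 did not have ratios of this size in both genotypes. Egr1 held 9063 H3K27ac bases after PBS and 7603 after IL-1 in wild-type HPC, a relative log2 ratio of -0.21, and 8178 and 8675 in knockout HPC, a ratio of 0.25. The upstream Egr1 element had 4360 and 3694 bases in wild-type HPC and 3664 and 4013 in knockout HPC, and the downstream element had 1533 and 982 and then 1439 and 1663. Nr4a2 held 4393 and 4486 bases in wild type and 4357 and 4175 in knockout, with ratios of 0.04 and 0.12.

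Nr4a2 lies at chr2:57106830-57124003 on the minus strand and had the simplest H3K27ac pattern, an element at the start and an element inside the gene. The start element, chr2:57122695-57125071, and the intragenic element, chr2:57114212-57117625, which lies 6.38 to 9.79 kb downstream of the start, were present in all 8 lists. The other 2 H3K27ac elements were single peaks of 72 and 176 bases. Between 80.1% and 86.4% of the H3K27ac bases in the window lay inside the gene body.

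H3K27ac at Nr4a2 was narrower in HPC than in HSC, the opposite order to Nr4a1. HSC lists held 5363 bases in wild-type PBS, 5202 in wild-type 5FU, 5391 in knockout PBS and 5577 in knockout 5FU. HPC lists held 4393, 4486, 4357 and 4175 bases in wild-type PBS, wild-type IL-1, knockout PBS and knockout IL-1. All 4 HPC lists lay below all 4 HSC lists, as for 13.7% of genes, with the same reservation on age, treatment schedule and experiment. The intragenic element held 3171 to 3296 bases in HSC and 2478 to 2773 in HPC, and the start element 1919 to 2260 and 1584 to 1879, so at neither did the ranges overlap.

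The balance within each list differed as well. In HSC the intragenic peak had 71.9% of the fold enrichment of the start peak in wild-type PBS, 67.0% in wild-type 5FU, 71.0% in knockout PBS and 85.7% in knockout 5FU. In HPC it had 23.5% in wild-type PBS, 42.3% in wild-type IL-1, 31.9% in knockout PBS and 33.8% in knockout IL-1. The start peak was the stronger of the pair in 8 of 8 lists, and the intragenic peak was nearer to it in all 4 HSC lists.

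H3K4me1 was broader in HPC over part of the intragenic element. The element chr2:57116933-57117628, which shares 693 bases with it, held 459, 547 and 204 bases in wild-type, heterozygous and knockout HPC and was in no HSC list. It was the only 1 of the 74 members' H3K4me1 elements in every HPC list and no HSC list at 8 weeks, which 2.51% of all H3K4me1 elements were; 0 were in every HSC and no HPC list (2.82% of all). The neighbouring element chr2:57114953-57116182, chosen after its values were seen, held 407 to 1169 bases in HPC and 0 to 329 in HSC. Another element chosen in this way, chr2:57113331-57114695, lay at the far edge of the intragenic element and shares 484 bases with it. It held 526 to 1057 bases in HPC and 0 to 841 in HSC, where it was in 4 of 7 lists, so the ranges overlapped. Over the whole window at 8 weeks, Nr4a2 had 6561, 7289 and 8984 bases of H3K4me1 in wild-type, heterozygous and knockout HSC and 9714, 7894 and 7808 in HPC. The relative log2 ratios of HPC against HSC were 0.25, 0.13 and -0.04.

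**Figure D3:**
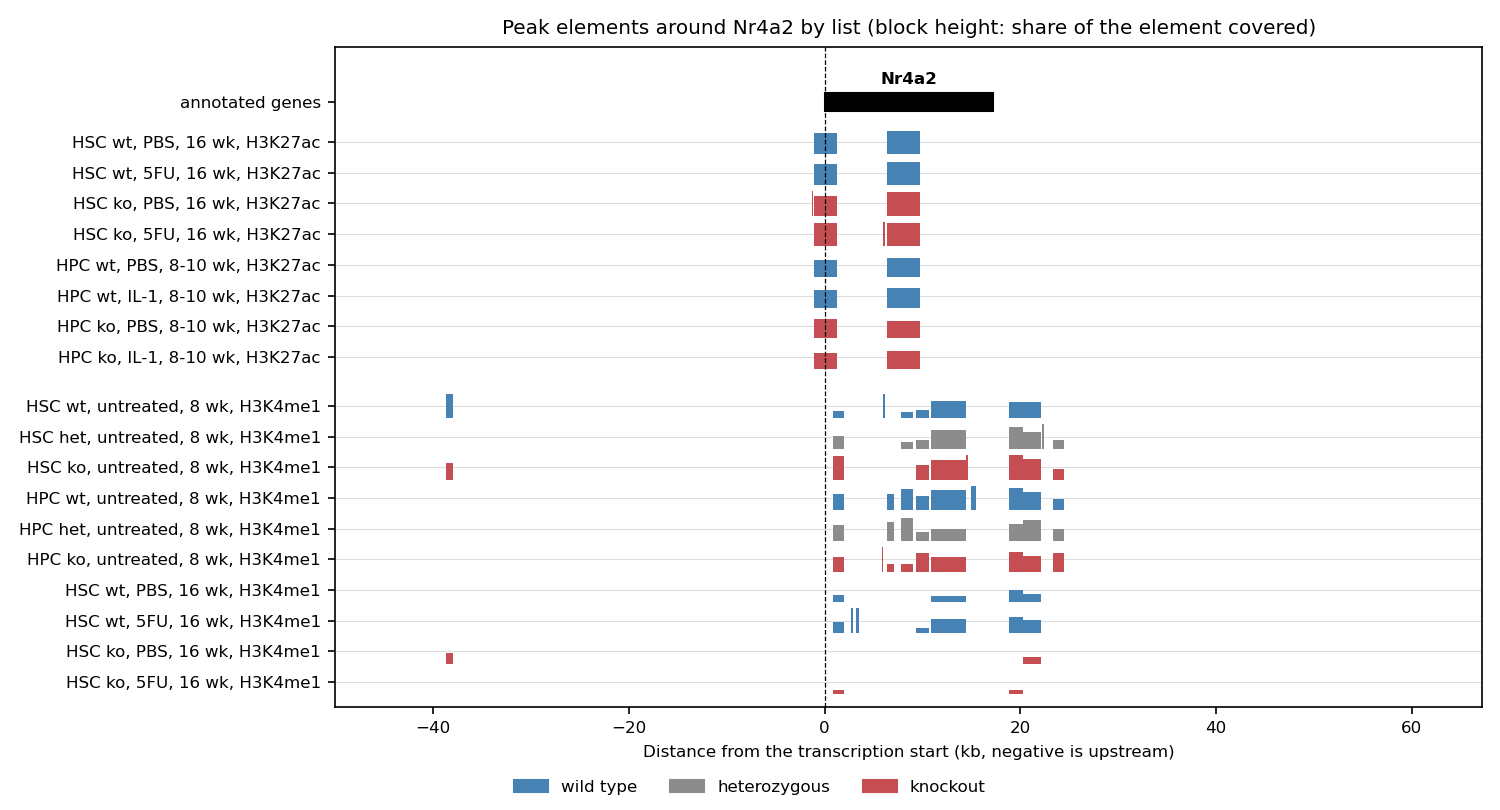
Peak elements in the Nr4a2 window by list, with distance from the start in kb along the direction of transcription on the horizontal axis and 1 line for each of the 18 lists, where a block's height is the share of the element covered in that list and colour is the genotype; a short predicted gene at the start is not drawn. H3K27ac stands at the start and 6.38 to 9.79 kb downstream in all 8 lists, and the 2 knockout H3K4me1 lists at 16 weeks are nearly empty.

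Loss of Kmt2c went with no called difference at the members at 8 weeks. In HSC, the relative log2 ratios of knockout against wild type for H3K4me1 were -0.25 for Egr1, -0.02 for Nr4a1 and 0.01 for Nr4a2, where 5.87% of genes were called. In HPC they were -0.11, 0.02 and -0.28, where 4.52% were called. Heterozygous against wild type gave -0.10, -0.21 and -0.11 in HSC (3.94% of genes called) and -0.18, 0.01 and -0.23 in HPC (3.3% called). Knockout against heterozygous gave -0.14, 0.19 and 0.13 in HSC (2.84% called) and 0.07, 0.01 and -0.05 in HPC (3.53% called). The covered bases of heterozygous cells lay between those of wild-type and knockout cells for Nr4a1 and Nr4a2 in HSC and for Nr4a2 in HPC, and outside them for Egr1 in both and for Nr4a1 in HPC. The HSC lists themselves covered 86.1 Mb in wild type, 103.0 Mb in heterozygous and 113.0 Mb in knockout cells. On the relative ratios against wild type, heterozygous HSC lay between wild type and knockout for Egr1 and outside them for Nr4a1 and Nr4a2. In HPC they lay between for Nr4a1 and Nr4a2 and outside for Egr1. Of the 74 H3K4me1 elements, 8 were in the wild-type and not the knockout HPC list (10.5% of all elements were) and 7 in the knockout and not the wild-type HPC list (12.6% of all).

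At 16 weeks, Nr4a2 had less H3K4me1 in knockout than in wild-type HSC after both treatments. The window held 2616 bases in wild-type PBS, 5155 in wild-type 5FU, 798 in knockout PBS and 449 in knockout 5FU. The relative log2 ratio of knockout against wild type was -0.83 after PBS, at percentile 1.87 of genes, and -0.89 after 5FU, at percentile 3.74. These were the only 2 of 63 member values that passed 1.5-fold, where 9.33% of genes passed after PBS and 14.2% after 5FU. With the main settings the other genes were on the other side of the median gene, with 0.13 and 0.40 for Egr1 and 0.16 and 0.41 for Nr4a1. That side was not stable. After PBS the sign changed under 3 of 8 alternatives for Egr1 and 2 of 8 for Nr4a1. After 5FU it changed under 2 of 8 for Egr1 and 1 of 8 for Nr4a1. Before the median gene was subtracted, the 5FU values of Egr1 and Nr4a1 were -0.80 and -0.79, since the wild-type 5FU list covered 116.0 Mb and the knockout 5FU list 44.2 Mb. The wild-type 5FU list joined 6 libraries of 2 series, and the knockout 5FU list 4 libraries of a single series. Genotype thus cannot be fully told apart from library series after 5FU.

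The Nr4a2 ratios changed with some settings. The highest H3K4me1 fold enrichment in the window was 3.32 in wild-type PBS, 3.65 in wild-type 5FU, 4.17 in knockout PBS and 3.22 in knockout 5FU, and 12.7% to 55.9% of peaks in these lists were higher. When both lists were limited to equal covered bases, the best peaks after PBS covered 1559 bases in the wild-type and 798 in the knockout list, a ratio of -0.58, and those after 5FU 0 and 449 bases, a ratio of 0.46. With only peaks of -log10 p of at least 4, the PBS lists held 557 and 479 bases and the ratio was -0.12, while the 5FU lists held 4064 and 242 bases and the ratio was -0.69, still called. With equal numbers of peaks, the ratio was -0.88 after PBS, still called, and -0.58 after 5FU. An element chosen after its values were seen, chr2:57109639-57113070 at the 3′ side of the gene body, held 934 bases in wild-type PBS and 1959 in wild-type 5FU and was in neither knockout list at 16 weeks. At 8 weeks the same element held 2451, 2609 and 2794 bases in wild-type, heterozygous and knockout HSC. Knockout HSC thus carried it at 8 weeks and not in the lists at 16 weeks, which also differ in age, treatment and list size.

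H3K27ac at Nr4a2 in the same groups of HSC was about as broad in knockout as in wild type. Knockout against wild type gave 0.16 after PBS, from 5363 and 5391 bases, and 0.24 after 5FU, from 5202 and 5577 bases. For Egr1 these ratios were -0.10 after PBS and 0.27 after 5FU, and for Nr4a1 -0.15 and -0.20, where 5.47% of genes were called after PBS and 5.73% after 5FU. Around Nr4a1, the H3K27ac elements chr15:101258680-101259354 and chr15:101259833-101260367 were in both wild-type and in no knockout HSC list, with 225 and 523 bases and 318 and 307 bases after PBS and 5FU. These were 2 of 31 elements (6.45%), against 4.01% of all H3K27ac elements. In HPC, knockout against wild type gave -0.19 for Egr1, -0.15 for Nr4a1 and -0.07 for Nr4a2 after PBS (4.73% of genes called), and 0.27, -0.05 and 0.01 after IL-1 (4.1% called). The Nr4a1 element chr15:101242026-101243134 was in both wild-type HPC lists, with 1109 bases after PBS and 335 after IL-1, and in neither knockout HPC list, as 2.04% of all H3K27ac elements were.

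5FU went with no called difference at any member. For H3K27ac, the relative log2 ratios of 5FU against PBS were -0.18 for Egr1, 0.11 for Nr4a1 and -0.09 for Nr4a2 in wild-type HSC (2.05% of genes called) and 0.19, 0.07 and -0.0078 in knockout HSC (2.36% called). Egr1 held 9594 bases after PBS and 8700 after 5FU in wild type, and 7889 and 9497 in knockout. The upstream Egr1 element accounted for most of the knockout difference, at 3309 and 4775 bases, while in wild type it was 4489 and 4346 and the downstream element went from 2121 to 1227. Around Nr4a1, chr15:101227698-101228115, over Grasp, was in both 5FU lists, with 248 wild-type and 247 knockout bases, and in no PBS list of HSC, as 2.93% of all H3K27ac elements were.

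For H3K4me1 after 5FU, the bases covered in wild-type HSC were higher at all 3 genes: 10301 after PBS and 17997 after 5FU for Egr1, 19523 and 35686 for Nr4a1, and 2616 and 5155 for Nr4a2. The wild-type 5FU list as a whole was also larger, 116.0 Mb against 54.0 Mb. It joined 2 library series, while the wild-type PBS list had a single series. Relative to the median gene the ratios were -0.27, -0.18 and -0.25, and 9.81% of genes were called. In knockout HSC, where both lists covered 44.2 Mb, Egr1 held 9920 and 9917 bases, Nr4a1 19338 and 20229, and Nr4a2 798 and 449. The ratios there were -0.0048, 0.06 and -0.32, and 8.37% of genes were called.

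**Figure D4:**
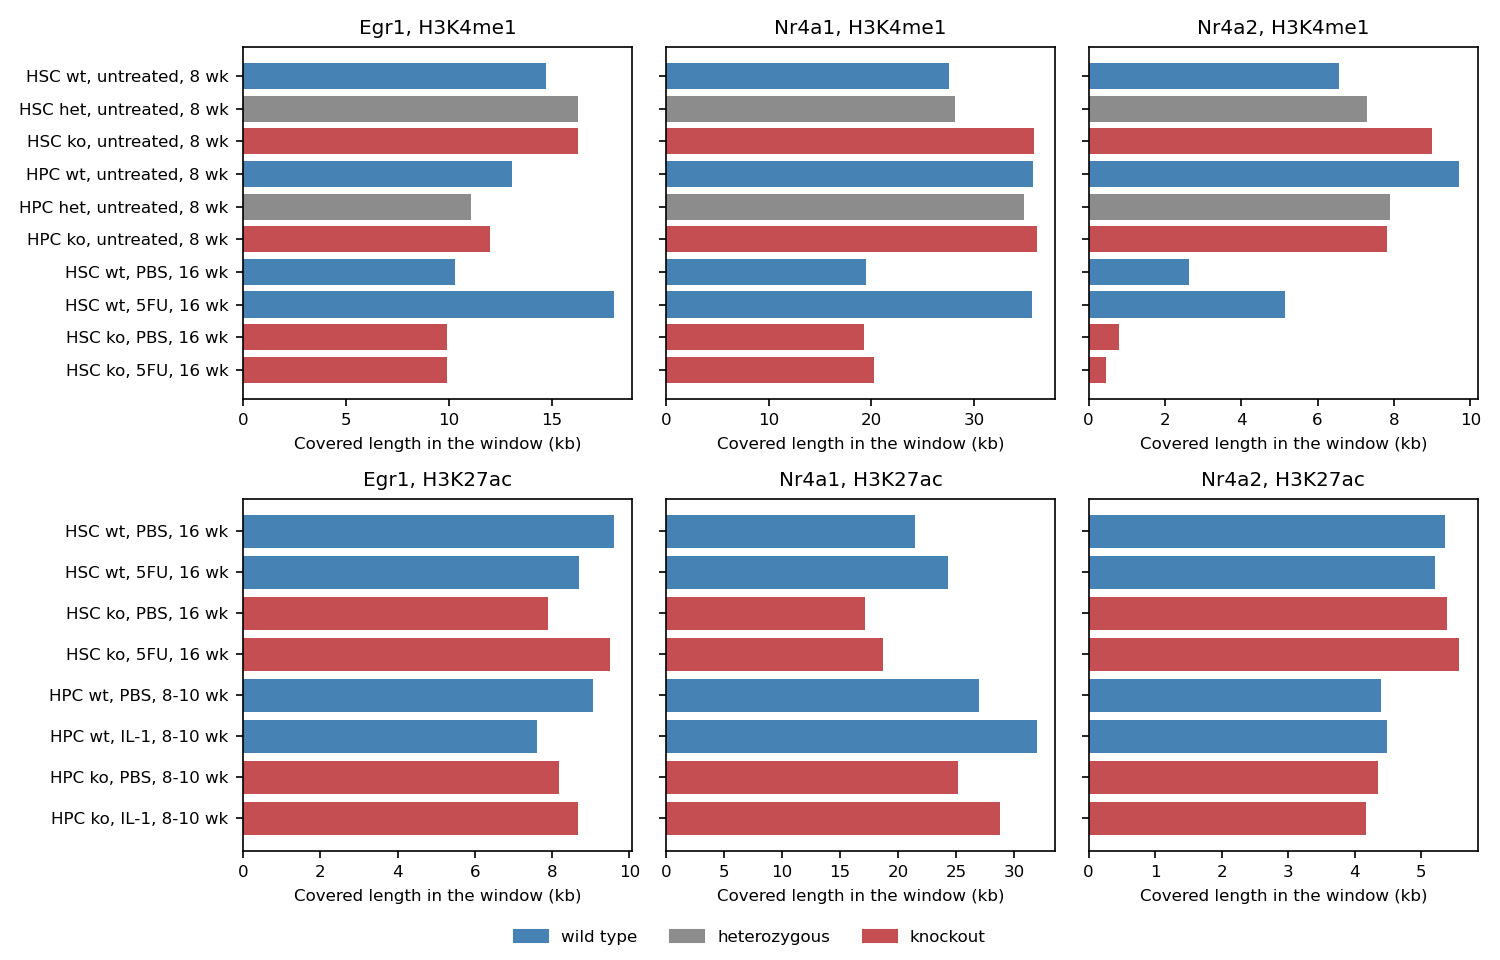
Covered length (kb, horizontal axis) in the window of each gene for the 10 H3K4me1 lists (upper panels) and the 8 H3K27ac lists (lower panels), 1 bar per list, coloured by genotype, with no error bars because each group has 1 list. For H3K27ac the 4 HPC bars are longer than the 4 HSC bars at Nr4a1 and shorter at Nr4a2, and for H3K4me1 the 2 knockout bars at 16 weeks are the shortest at Nr4a2.

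**Figure D5:**
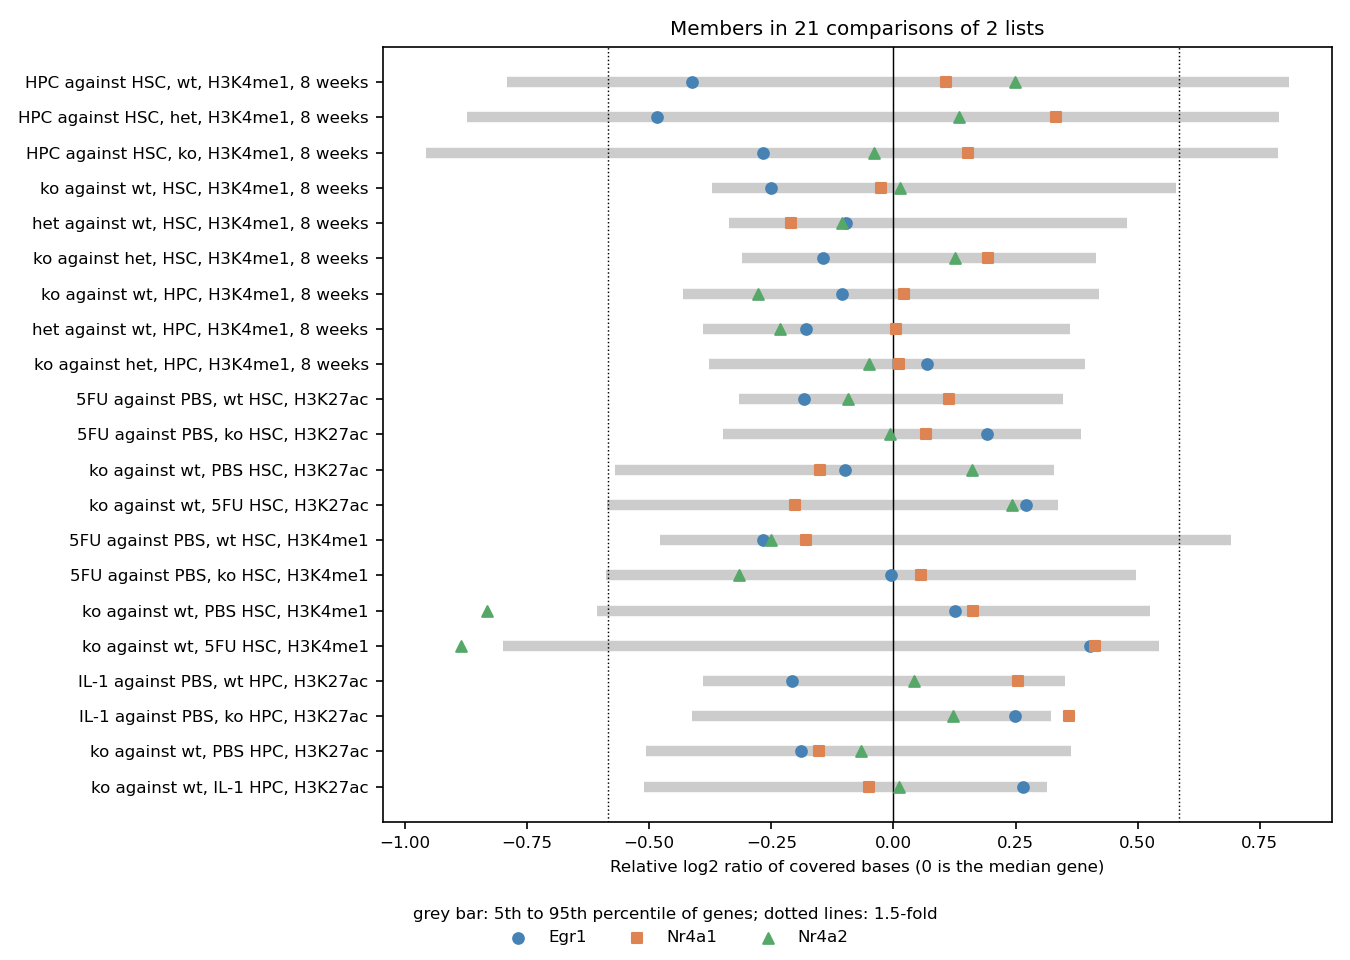
Relative log2 ratio of covered bases (horizontal axis, 0 is the median gene) of Egr1, Nr4a1 and Nr4a2 in 21 comparisons of 2 lists; grey bars span percentiles 5 to 95 of genes and dotted lines mark 1.5-fold. Only Nr4a2 in knockout against wild-type HSC at 16 weeks, for H3K4me1 after PBS and after 5FU, lies beyond the dotted lines.

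Over all classes, the members' elements were more often constant than the average H3K27ac element: 12 of 31 (38.7%) were in all 8 lists, against 18.6% of all H3K27ac elements. Of these constant H3K27ac elements, 3 lay around Egr1, 7 around Nr4a1 and 2 around Nr4a2, and some of those around Nr4a1 overlap other genes. The elements of the series were not matched to them for distance from a gene start. For H3K4me1 the share was that of the series, 12 of 74 (16.2%) in all 10 lists against 16.0%. Of these 12, 4 lay around Egr1, 8 around Nr4a1 and 0 around Nr4a2.

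The other genes of the pathway were described as a list of 24 partners and upstream regulators, such as NAB co-repressors, serum response factor and its ETS partners, CREB and its coactivators, RXR and MEF2 factors. In wild-type HPC against HSC, 2 of these 24 genes had at least 1.5-fold more H3K4me1 than the median gene and 2 at least 1.5-fold less, where 9.83% and 9.16% of all genes did, and the list's median was -0.07. The 2 with more were Elk1, an ETS partner of serum response factor (659 bases in HSC, 3206 in HPC, relative log2 ratio 1.09), and Egr2, of the same family as Egr1 (7753 and 17916 bases, 0.86). Among those with less was Mrtfb, a coactivator of serum response factor (29265 and 20767 bases, -0.73). Egr2 thus had more H3K4me1 in wild-type HPC and Egr1 less. The Egr1 ratio of -0.41 was not called, however, and was 0.03 with a window of 10 kb. In knockout against wild-type HSC at 8 weeks, 2 of 24 were called with more, where 4.86% of genes were, among them Elk1 (659 and 2877 bases, 0.84). In HPC, 1 of 24 was called with more and 1 with less, where 2.04% and 2.48% of genes were; the latter was Egr4 (2044 and 648 bases, -0.88). Rxra, which encodes the dimer partner of NR4A1 and NR4A2, had less H3K27ac in knockout than in wild-type PBS HSC (11248 and 3697 bases, -1.23) and HPC (4592 and 2689 bases, -0.66), where 4.7% and 3.39% of genes were called with less. It was the only gene of the list called for H3K27ac in these 2 comparisons. None of the list was called for wild-type 5FU or wild-type IL-1 H3K27ac, where 2.05% and 3.26% of genes were called.

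In wild-type HPC against HSC, 2 of 30 other immediate early genes had at least 1.5-fold more H3K4me1 than the median gene. None had at least 1.5-fold less, where 9.83% of all genes had more and 9.16% less. The 2 with more were Fos, a subunit of AP-1 (12840 and 26161 bases, 0.72), and Dusp5, a phosphatase (19575 and 38899 bases, 0.70). The list's median was 0.16, and 23 of 30 genes lay above the median gene, while Egr1 lay below it. No gene of this list was called in knockout against wild type at 8 weeks, where 5.87% of genes were called in HSC and 4.52% in HPC. For H3K27ac after IL-1 in wild-type HPC, 1 of 29 measured genes was called with less, where 1.91% of genes were, and 0 with more. It was Sgk1, a serum-induced kinase (1032 and 304 bases, -0.62). In knockout against wild-type PBS HPC, 1 of 29 was called with less, where 3.39% of genes were, and 0 with more. It was Klf2, a quiescence factor of T cells (14855 and 9496 bases, -0.65).

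Across the 18 lists, the members did not follow each other. Pearson's r of their relative coverage, after subtraction of each gene's mean for the mark, was 0.291 between Egr1 and Nr4a1, -0.641 between Egr1 and Nr4a2 and -0.609 between Nr4a1 and Nr4a2. The lists share cell type, age and experiment in blocks, so these values describe the 18 lists only. They include the knockout H3K4me1 lists at 16 weeks, where Nr4a2 held only 798 bases after PBS and 449 after 5FU. The weight of these lists in the values of r was not tested. The 3 genes with the pattern most like Egr1 were Gstm4 (r = 0.946), Slc4a9 (0.934) and Hbegf (0.929). Slc4a9 and Hbegf both lie on chromosome 18, as Egr1 does. The rule set no distance between the named genes, so their windows may share peaks and need not be separate matches. For Nr4a1 they were Ccdc62 (0.944), Tpm4 (0.935) and Stard7 (0.934), and for Nr4a2 Cela3b (0.941), Scin (0.917) and Ext1 (0.907). They are the highest of 11025 to 11058 genes compared with each member, and none is in the list of other immediate early genes above, which is not a full list of such genes.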

How the data were processed

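Chromatin of sorted HSC and HPC was profiled by ChIPmentation. Per the submitters' processing notes, the authors used Novoalign and MACS2 on mm10 (GRCm38); no version, filter or pooling step is given in the sources used here. Each deposited list holds every peak's position, its fold enrichment (a linear ratio) and a −log10 p from the authors' peak caller. Reads were not used, so depth is unknown.

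Covered bases were summed over merged peaks from 50 kb before to 50 kb after each of 21883 RefSeq genes (Python 3.11.15, pandas 2.3.3, numpy 2.4.6). Ratios used 1000 added bases and the median over genes that had 1000 covered bases or more in either list. The script was tested on simulated lists. An element was present in a list when a peak overlapped it by 1 base. Besides the members, up to 2 genes per direction, list and main comparison past 1.5-fold were named, 3 genes most like each member, start elements, the strongest elements and elements of the presence classes. Elements compared outside these rules are marked as chosen after their values were seen. Likeness was computed over genes with a mean of at least 3000 covered bases for both marks, over 1 Mb from the member. The members, gene lists, comparisons and rules were chosen with earlier results of these data known. Windows, added bases, list sizes, peak thresholds and centring were varied. Of 31 immediate early genes listed, 30 were in the gene table. A gene that the naming rule would include is not reported here.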

Additional observations from a re-analysis of the deposited data

Results flagged for a closer look

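H3K27ac at Egr1 went in opposite directions in wild-type and knockout cells under both treatments. For 5FU against PBS in HSC, the relative log2 ratio was -0.18 in wild type and 0.19 in knockout, a difference of 0.37. Of 15772 genes, 13.2% had ratios of opposite sign that lay at least 1.25-fold apart. For IL-1 against PBS in HPC, the ratio was -0.21 in wild type and 0.25 in knockout, a difference of 0.46, and 10.3% of 15554 genes had such ratios. Each of the 4 groups in a comparison had 1 list, so the difference was not tested. The wild-type IL-1 ratio was 0.019 with a window of 100 kb, and the other 3 ratios kept their sign under all 8 alternatives.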

How the results depend on the processing

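The ratios of the 3 genes in 21 comparisons were recomputed under 8 alternatives each, and 493 of 504 values stayed on the same side of 1.5-fold and in the same direction where called. The exceptions among called values all concern Nr4a2 in knockout against wild-type HSC for H3K4me1 at 16 weeks. After PBS, -0.83 became -0.29 with 5000 bases added, -0.58 with equal covered bases and -0.12 with peaks of −log10 p of at least 4. After 5FU, -0.89 became -0.12 with 5000 bases added, -0.58 with equal numbers of peaks and 0.46, the reverse, with equal covered bases, where wild type held 0 bases and knockout 449. Without subtraction of the median gene, 5 further values passed 1.5-fold, all for H3K4me1 and all in comparisons that use the wild-type 5FU list: 0.75, 0.84 and 0.77 for Egr1, Nr4a1 and Nr4a2 in 5FU against PBS, and -0.80 and -0.79 for Egr1 and Nr4a1 in knockout against wild type. Of the 63 ratios, 34 kept 1 sign under every alternative and 29 did not, the lower H3K4me1 of Egr1 in wild-type and knockout HPC among the latter. When an element had to be covered over at least 50% of its length, 14 of 54 counts of elements per list were lower by over 1.5 times, and with peaks of −log10 p of at least 4, 5 of 54 were. Depth is unknown, and a peak missing from a list is not shown to be absent from the cells. Leaving out replicates was not possible. No paired analysis was possible because each group has 1 list with no values per library.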
